A study of Mus musculus with 6 samples.

Results

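The cornified envelope and the desmosome are the protective shell of dying skin cells and the junction that holds epithelial cells together, and 34 of their genes were followed in 6 mouse breast tumors, out of 18460 genes that were listed in at least 1 tumor. The 34 genes were chosen by name as genes of epidermal differentiation and of desmosomes, with earlier results of these data known. The tumors were 3 from K14-TSLPtg;PyMTtg;Rag1KO mice (test) and 3 from PyMTtg;Rag1KO mice (control), all Balb/c. Mice of both groups carried the PyMT transgene, which the MMTV promoter drives in mammary epithelium, lacked Rag1 and therefore made no T or B cells of their own, and were given CD4+ T cells at 4 wk of age. Tumors start at about 4 wk in this model and were taken at 18 to 20 wk. The test mice differed by a transgene for the cytokine TSLP under the K14 promoter, which is active in keratinocytes and other basal epithelial cells, so the promoter that drives the cytokine differs from the one that drives the tumors. The comparison of test with control tumors asks whether genes of the squamous program differ in tumors that grew with the cytokine and CD4+ T cells. The study gives its tumors as taken from different mice, and whether mice shared a litter is not stated. P-values weigh the difference between groups against the spread between these tumors within a group, and treat the tumors as independent.

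As keratinocytes move up through the epidermis they stop dividing, switch keratins and build a cornified envelope under the plasma membrane. Transglutaminases cross-link loricrin, involucrin, small proline-rich proteins, envoplakin and periplakin into this shell, while proteases and their inhibitors time the shedding of the dead cells. Desmosomes are also found in simple epithelium such as the mammary gland. Their cadherins (desmogleins and desmocollins) bind the neighboring cell, and plaque proteins (plakoglobin, plakophilins and desmoplakin) tie the cadherins to keratin filaments, so part of the desmosome genes are shared by skin and mammary cells, while other desmosome genes and the late envelope genes are largely those of skin.

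Expected counts, the estimated number of reads of a gene, summed to between 8373390 and 9449565 per tumor. Levels are given below as counts, as CPM (counts scaled to library size) where tumors are compared, or as FPKM (a level also divided by gene length) where genes are compared or summed. A count of 3 in a tumor was taken as the floor, and it covers counting error only. The CPM values below use library sizes scaled by edgeR, on which this floor is 0.318 to 0.366 CPM. Control replicate 2 stood apart from its group. Across genes its log2 levels correlated at 0.867 and 0.902 with those of control replicates 1 and 3, and at 0.916, 0.922 and 0.93 with those of test replicates 1, 2 and 3, whereas the correlation between control replicates 1 and 3 was 0.945. Genes are not independent replicates, so these correlations describe the libraries and carry no test.

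The tumors expressed the core genes of the desmosome and part of the envelope genes, while *Lor*, *Ivl*, *Flg* and *Flg2* had between 0 and 13 counts in every tumor. *Dmkn* stood out with levels in all 3 test tumors above all 3 control tumors, about 17.8-fold on average. *Serpinb5*, *Pkp2* and *Pkp3* were higher in every test tumor by a smaller margin, and *Calml3* was lower on average. None of these differences passed the adjusted threshold in edgeR's test. Test replicate 3 had the highest level of 17 of the 34 members. In bulk tissue more cells of a type and more RNA per cell cannot be told apart, and this holds for every value here.

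Of the 34 members, 32 were listed in at least 1 tumor, *Flg* and *Flg2* in none, and 3 (*Flg*, *Flg2* and *Sprr2d*) were at or under the floor in every tumor. Enough counts for the comparison were found for 22 members, and the 12 others are described by their counts alone. The 22 are the more abundant members and do not stand for all 34, and a gene could pass the filter through 1 group only. In edgeR's quasi-likelihood test, which weighs each difference against the spread between tumors of a group, 0 of the 22 had a Benjamini-Hochberg adjusted p of 0.05 or less over the 13706 genes tested, as did 0.0% of all tested genes. At an unadjusted p under 0.05, 3 members were higher in test tumors (*Serpinb5*, *Dmkn* and *Pkp2*), where 3.15% of all tested genes were, and 1 was lower (*Calml3*), where 5.26% were. DESeq2 placed 1 member at an adjusted p of 0.05 or less, *Dmkn*, where it placed 343 of 18460 genes in all. With limma on log2 FPKM, 0 members were placed there with either pseudocount. Of all 12890 genes in limma, 1 and 0 were, with pseudocounts of 1 and 0.1. Among the 22, the groups did not overlap in CPM for 4, all higher in test tumors (*Serpinb5*, *Dmkn*, *Pkp2* and *Pkp3*), against 6.12% of all tested genes, and for 0 in the lower direction, against 5.86%. Of the members not tested, *Krtdap* and *Casp14* also had groups that did not overlap in CPM, with at most 4 counts in each tumor but test replicate 3, and *Casp14*, with 1 count in 4 of the tumors, overlapped in FPKM. In direction alone 18 of the 22 were higher in test tumors, as were 51.5% of all tested genes, and 4 lower (*Sprr1a*, *Tgm1*, *Calml3* and *Dsc3*). Without test replicate 3, 12 members were higher and 10 lower. The median log2 fold change of the 22 was 0.66, where that of all tested genes was 0.018.

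These counts rested on single tumors. Without control replicate 2, the tumor that stood apart, 8 members were higher at an unadjusted p under 0.05 (*Lgals7*, *Ppl*, *Serpinb5*, *Sbsn*, *Pkp3*, *Pkp2*, *Asprv1* and *Dmkn*) and 0 lower. Of all 14166 genes tested in that run, 737 were higher at that threshold and 1283 lower. Without test replicate 2 the count of higher members was 5, and without control replicate 1, control replicate 3 or test replicate 3 it was 1, each time *Dmkn*. Over all genes, 480 of 14033 were higher without test replicate 2. The counts were 290 of 14056 without control replicate 1, 271 of 14024 without control replicate 3 and 499 of 14137 without test replicate 3. *Calml3* no longer reached an unadjusted p under 0.05 without control replicate 2 or test replicate 1. The median of the tested members was 0.17 without test replicate 3 and 0.37 without control replicate 1.

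**Figure D1:**
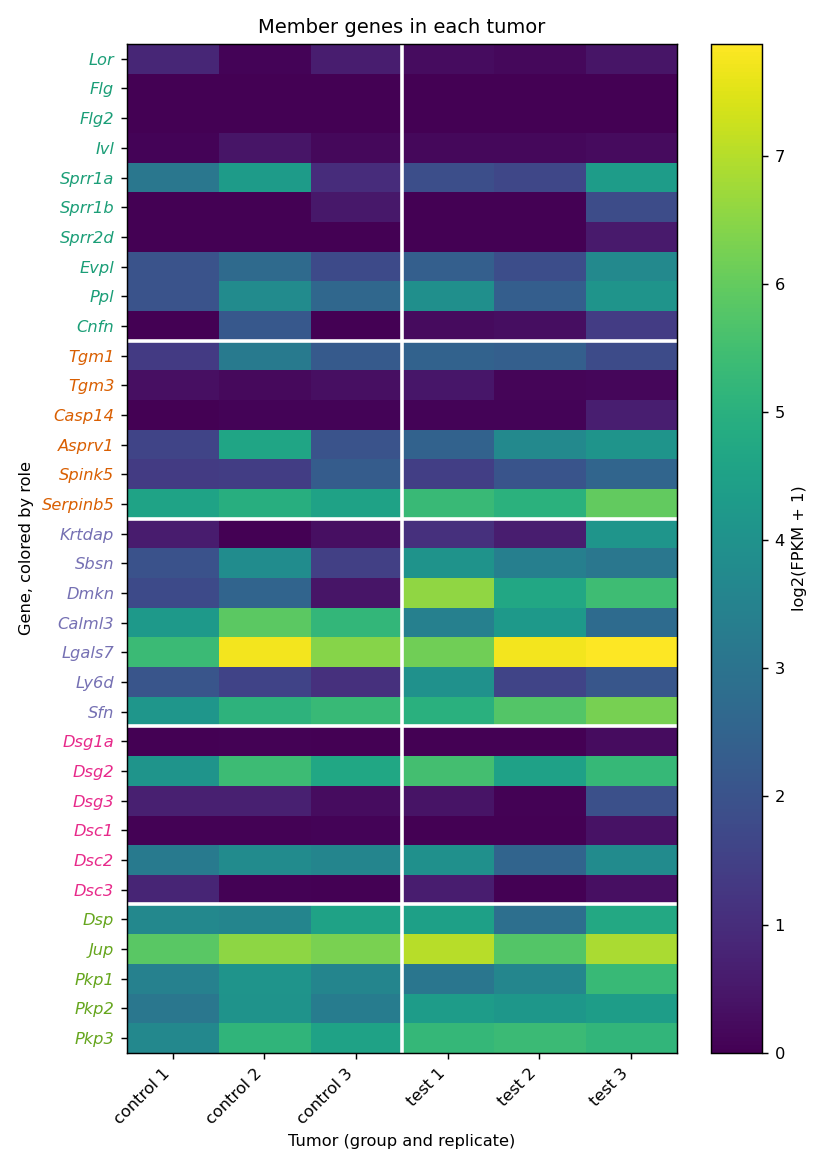
Level of each of the 34 members (vertical axis, colored by role) in each of the 6 tumors (horizontal axis), as log2(FPKM + 1) on the color scale. The dark bands of *Flg*, *Flg2*, *Dsg1a* and *Dsc1* run across nearly all tumors, *Jup* and *Lgals7* are bright throughout, and *Dmkn* is bright in the 3 test tumors only.

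The structural proteins of the envelope were split into a nearly silent and an expressed set. *Lor*, which encodes loricrin, the main protein of the mature envelope, reached 13, 1 and 9 counts in the control tumors and 3, 2 and 6 in the test tumors, given here and in all sets of values that follow in the order of replicates 1, 2 and 3. *Ivl*, encoding the early scaffold protein involucrin, had at most 6.1 counts in any tumor. *Flg* and *Flg2*, which encode the filaggrins that bundle keratin in the granular layer, were not listed in any tumor, a count of 0. These defining genes of cornified epidermis were therefore at 13 counts or fewer in every tumor of both groups, and no difference between groups was detectable at this depth.

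Among the small proline-rich proteins, which bridge other envelope proteins, *Sprr2d* had 3 counts in test replicate 3 and 0 elsewhere, and *Sprr1b* had 19 counts there, 3 in control replicate 3 and 0 elsewhere. *Sprr1a* was the exception, with 56, 134 and 7 counts in the control tumors and 18, 15 and 143 in the test tumors. Control replicate 2 and test replicate 3 were high and the groups overlapped fully, with a log2 fold change of -0.18 (SE 1.11). It was -1.88 without test replicate 3 and -0.72 without control replicate 3. Its sign turned without control replicate 2 (0.83), test replicate 1 (0.24) or test replicate 2 (0.26). Genes of this family resemble each other, and how the counting divided reads between *Sprr1a* and *Sprr1b* is not known, so the values of either one are uncertain. *Cnfn*, encoding cornifelin, a minor envelope protein, had 22 counts in control replicate 2, 11 in test replicate 3 and at most 1 in each other tumor.

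*Evpl* and *Ppl* encode envoplakin and periplakin, plakin proteins that reach from desmosomes to the first layer of the envelope. *Evpl* was at 20.8, 34.6 and 15.1 CPM in control tumors and at 26.1, 18.1 and 77.9 CPM in test tumors. Test replicate 3 alone set it apart, since the other 2 test tumors lay within the control range. Its log2 fold change of 0.79 (SE 0.58) was -0.08 without that tumor. *Ppl* was at 20.5, 78.9 and 31.5 CPM in control tumors and at 87.4, 27.5 and 99.7 CPM in test tumors. Control replicate 2 lay with the higher test tumors and test replicate 2 with the lower control tumors, and the log2 fold change of 0.71 (SE 0.61) was 1.46 without control replicate 2 and 0.37 without control replicate 1. Summed over the 10 structural members, FPKM was 14.6, 41.5 and 9.61 in control tumors and 21.7, 9.46 and 52.1 in test tumors, with *Ppl* the most abundant, and the groups overlapped. Of the 3 tested, 2 were higher and 1 lower, with a median log2 fold change of 0.71, which was 0.37 without control replicate 1, 1.18 without control replicate 2, 1.10 without test replicate 2 and -0.08 (1 higher, 2 lower) without test replicate 3.

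The next group lists enzymes and inhibitors of cornification, with *Serpinb5* counted among them. That gene was 1 of the 4 tested members whose groups did not overlap, and a role of it in cornification was not tested. *Serpinb5* (NCBI Gene 20724, chromosome 1, 106861175 to 106883348 on GRCm38) encodes maspin, a serpin of epithelial cells made in skin and in mammary myoepithelium. It was at 62.6, 73.5 and 55.3 CPM in control tumors and at 98.0, 85.8 and 159 CPM in test tumors. Every test tumor lay above every control tumor, test replicate 3 highest. The means were 63.8 ± 9.18 and 114 ± 39.1 CPM (SD, n = 3 each) and the log2 fold change was 0.84 (SE 0.30) with an adjusted p of 0.506 in edgeR. That fold change was 0.54 without test replicate 3 and at most 1.01 with any other tumor left out.

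*Tgm1* encodes the membrane transglutaminase that cross-links the envelope, and it was at 4.51, 22.3 and 9.91 CPM in control tumors and at 12.1, 12.2 and 6.9 CPM in test tumors. The test tumors lay inside the control range, with a log2 fold change of -0.24 (SE 0.58), which was 0.53 without control replicate 2. Of *Tgm3*, the second epidermal transglutaminase, 3 to 13.7 counts were found per tumor. *Casp14*, a caspase tied to cornification that helps break down filaggrin, had 13 counts in test replicate 3 and at most 1 elsewhere. *Asprv1*, the protease that processes profilaggrin, was at 3.36, 35.3 and 4.47 CPM in control tumors and at 6.8, 19.3 and 24.7 CPM in test tumors. Control replicate 2 had the highest level of all tumors, and without it the log2 fold change of 0.24 (SE 0.91) was 2.11, while it was -0.23 without control replicate 1, -0.19 without control replicate 3 and -0.14 without test replicate 3. *Spink5*, an inhibitor of the proteases that shed dead cells, ran from 8.0 to 24.0 CPM with overlapping groups and a log2 fold change of 0.47 (SE 0.51), which was 0.27 without control replicate 1 or 2, 0.97 without control replicate 3, 0.79 without test replicate 1 and 0.07 without test replicate 3. Over these 6 members the summed FPKM was 28.1, 63.5 and 33.1 in control tumors and 50.7, 51.0 and 85.6 in test tumors, with *Serpinb5* the most abundant, and control replicate 2 lay above 2 of the test tumors. Of the 4 tested, 3 were higher and 1 lower, with a median log2 fold change of 0.35. It was 0.02 without control replicate 1 and 0.03 without test replicate 3 (2 higher and 2 lower in both), 0.74 without control replicate 2 and 0.70 without test replicate 1.

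*Dmkn* had the largest log2 fold change of the 22 tested members. It encodes dermokine, a protein secreted by the upper epidermis, and lies on chromosome 7 of GRCm38 (NCBI Gene 73712, 30763756 to 30781066). Its level was 1.85, 3.46 and 0.533 CPM in control tumors and 57.3, 17.1 and 30.5 CPM in test tumors, from 16, 32 and 5 against 497, 140 and 287 counts. The lowest test tumor lay well above the highest control tumor, and the test tumors differed among themselves, with replicate 1 highest. The means were 1.95 ± 1.47 CPM in control and 35.0 ± 20.5 CPM in test tumors (SD, n = 3 per group), and the log2 fold change was 4.16 (SE 0.73). Its adjusted p of 0.394 in edgeR is the lowest of all tested genes and is shared with other genes. DESeq2 gave *Dmkn* an adjusted p of 1.29e-06 in a run that called 343 genes, and edgeR gave 0.0461 without control replicate 2 in a run that called 182. Over all alternatives its adjusted p ranged from 1.29e-06 to 0.979, while the fold change stayed between 3.60 and 4.87 with any 1 tumor left out.

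The length that the authors' counting assigned to *Dmkn* also differed between tumors. It was 741.17, 761.24 and 1598.5 bases in control tumors and 662.14, 665.07 and 751.02 bases in test tumors. In RSEM, which the processing notes name, such a length is an average over the transcripts to which reads were assigned. The annotation of the gene holds a short transcript of 662 bases with 7 exons that starts inside the gene at 30776401, and longer ones such as those of 1926, 2007 and 2063 bases with 18 to 20 exons that start between 30763756 and 30763799. The assigned length was thus close to that of the short transcript in test replicates 1 and 2 and lay between short and long in control replicate 3, where the count was 5. With so few counts the split in the control tumors is imprecise, and a difference in transcript use between the groups was not tested.

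*Dmkn* lies between *Sbsn*, which encodes suprabasin, and *Krtdap*, which encodes keratinocyte differentiation-associated protein, and all 3 are secreted products of differentiating keratinocytes whose genes fall within 58.4 kb of chromosome 7 (30732674 to 30791089). The 250 bases before annotated transcript starts are shown because the neighbors share an expression site in skin but had different levels in the tumors. They are from RefSeq on GRCm38.p6, all on the plus strand, at chr7:30751221-30751470 for *Sbsn*, chr7:30763506-30763755 for the long form of *Dmkn*, chr7:30776155-30776404 for its short form and chr7:30787655-30787904 for *Krtdap*. The first 2 windows hold no annotated exon (the *Sbsn* window lies within a transcript of the noncoding gene *Tmem147os*), the short-form window lies within *Dmkn* and is intronic in 5 longer transcripts apart from 4 bases of exon at its end, and that of *Krtdap* has 9 bases of exon at its end. Capitals mark TGANTCA, the letters bound by AP-1 factors, searched on both strands, where the pattern reads the same.
Sbsn: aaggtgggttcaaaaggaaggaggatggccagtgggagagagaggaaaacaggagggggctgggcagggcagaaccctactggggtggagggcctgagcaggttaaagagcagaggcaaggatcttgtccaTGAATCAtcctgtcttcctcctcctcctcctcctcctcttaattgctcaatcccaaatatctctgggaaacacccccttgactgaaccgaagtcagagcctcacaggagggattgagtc
Dmkn, long form: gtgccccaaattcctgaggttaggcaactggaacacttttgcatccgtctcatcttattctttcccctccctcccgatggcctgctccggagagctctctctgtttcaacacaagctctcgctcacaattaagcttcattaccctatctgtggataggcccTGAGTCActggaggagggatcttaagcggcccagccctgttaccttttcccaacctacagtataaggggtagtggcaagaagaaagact
Dmkn, short form: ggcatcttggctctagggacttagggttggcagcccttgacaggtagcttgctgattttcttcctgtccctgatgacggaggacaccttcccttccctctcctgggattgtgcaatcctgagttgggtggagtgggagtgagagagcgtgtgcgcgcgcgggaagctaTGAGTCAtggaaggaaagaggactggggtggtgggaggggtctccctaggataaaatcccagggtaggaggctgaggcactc
Krtdap: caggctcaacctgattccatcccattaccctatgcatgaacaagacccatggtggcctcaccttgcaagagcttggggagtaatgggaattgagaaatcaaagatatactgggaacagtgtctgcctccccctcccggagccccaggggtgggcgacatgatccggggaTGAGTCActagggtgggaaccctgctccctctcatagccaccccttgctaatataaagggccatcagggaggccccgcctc
Counted to the base that follows each window, the first base of TGANTCA lay 119 bases upstream for *Sbsn* (whose RefSeq span begins farther upstream, at 30732674), 89 and 82 bases for the long and short forms of *Dmkn*, and 81 bases for *Krtdap*. The search covered 23 windows of 20 member genes, and 13 windows of 11 genes held the letters. Of all 32851 windows of that length, 6.75% did. No desmosomal cadherin or plakophilin was searched, and some envelope members were not. The desmosome members searched were *Jup* and *Dsp* alone, and neither held the letters. The rate therefore describes mainly genes of the envelope groups. Overlapping windows of the long form of *Dmkn* held the same match, which was counted for each. TATAAA, on either strand, was in 8 of the 23 and in 12.4% of all windows, and AACNGGTT, the letters bound by grainyhead-like factors, was in 1 of the 23 (*Sfn*) and in 1.79% of all windows. A match is a run of letters and not a measured binding site.

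The 2 neighbors of *Dmkn* had other levels. *Sbsn* was at 4.17, 17.5 and 2.24 CPM in control tumors and at 19.7, 10.9 and 11.5 CPM in test tumors. Control replicate 2 lay above 2 of the test tumors, and the log2 fold change of 0.81 (SE 0.73) was 2.13 without it, 0.50 without control replicate 1 and 0.36 without control replicate 3. *Krtdap* had 2, 0 and 1 counts in control tumors and 4, 2 and 66 in test tumors, so that 87.0% of its summed CPM lay in test replicate 3 and all other tumors were close to the floor. No test was made for *Krtdap* in the main comparison because too few tumors had counts, and of the 5 alternatives that tested it, it was higher at an unadjusted p under 0.05 in 3 (DESeq2, edgeR with no filter on low counts, and edgeR with a mean of at least 10 counts) and in neither limma fit.

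*Calml3* had the opposite direction. It encodes a calmodulin-like protein of epithelial cells (NCBI Gene 70405, chromosome 13, 3802893 to 3804318) and was at 26.8, 79.5 and 49.9 CPM in control tumors and at 13.4, 26.9 and 8.06 CPM in test tumors. Control replicate 1 and test replicate 2 were level, so the groups overlapped, and the other 2 control tumors lay above all test tumors. The means were 52.1 ± 26.4 and 16.1 ± 9.69 CPM (SD, n = 3 each) and the log2 fold change was -1.69 (SE 0.55) with an adjusted p of 0.473 in edgeR and between -2.28 and -1.26 with any 1 tumor left out.

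**Figure D2:**
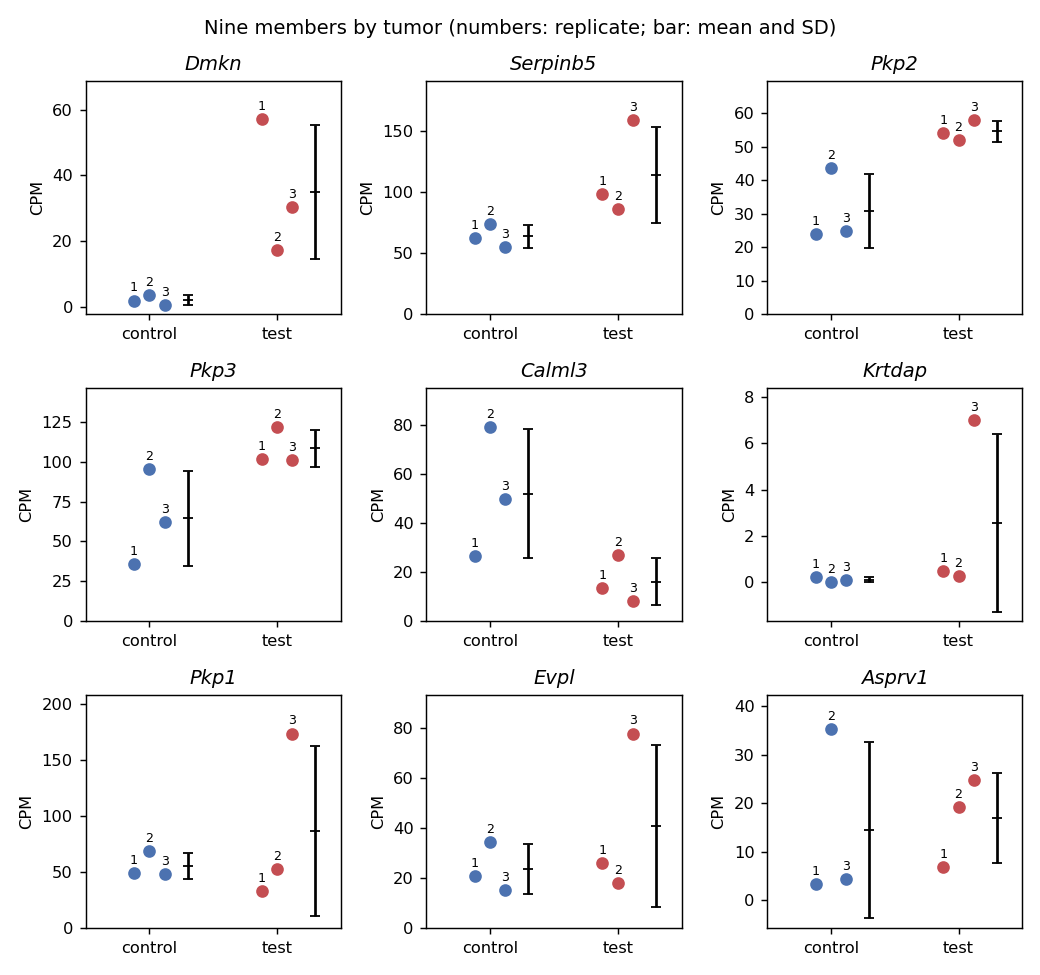
CPM (vertical axis) of 9 members in the control (blue) and test (red) tumors, with replicate numbers at the points and the mean and SD of each group as a bar beside them. *Dmkn*, *Serpinb5*, *Pkp2* and *Pkp3* separate the groups, *Calml3* is lower in test tumors with replicates that meet at 26.8 and 26.9 CPM, test replicate 3 alone is high for *Krtdap*, *Pkp1* and *Evpl*, and control replicate 2 is highest for *Asprv1*.

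The remaining 3 squamous members overlapped between groups. *Lgals7*, encoding galectin-7, a lectin of stratified epithelium, was the most abundant member of the envelope groups at 39.8, 212 and 85.0 FPKM in control tumors and 70.7, 213 and 233 FPKM in test tumors. Control replicate 2 was level with test replicate 2, and the log2 fold change of 0.67 (SE 0.65) was 1.49 without control replicate 2 and 0.28 without control replicate 1. *Sfn*, encoding 14-3-3 sigma, a cell cycle inhibitor of epithelial cells, was at 28.7, 51.4 and 59.5 CPM in control tumors and at 48.4, 89.4 and 122 CPM in test tumors. Only test replicate 1 lay within the control range, and the log2 fold change was 0.89 (SE 0.41), or 0.58 without test replicate 3. *Ly6d*, a small membrane-anchored protein of keratinocytes and other cells, had a log2 fold change of 1.60 (SE 0.84) that rested on test replicate 1 at 9.57 CPM, against 0.746 to 2.31 CPM in the other tumors, and it was 0.35 without that tumor. The 7 secreted and other squamous members summed to 83.4, 324 and 163 FPKM in control tumors and to 236, 321 and 383 FPKM in test tumors, with overlapping groups. Of the 6 tested, 5 were higher and 1 lower, with a median log2 fold change of 0.85, or 0.57 without control replicate 1 and 1.51 without control replicate 2.

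Desmosomal cadherins were represented by *Dsg2* and *Dsc2*, the pair of simple epithelium, and only traces of the epidermal forms were found. *Dsg2* was at 97.3, 230 and 139 CPM in control tumors and at 253, 133 and 218 CPM in test tumors, and *Dsc2* ran from 22.2 to 62.7 CPM. Both overlapped between the groups, with log2 fold changes of 0.37 (SE 0.39) and 0.01 (SE 0.40). That of *Dsg2* was 0.12 without control replicate 1, 0.77 without control replicate 2, 0.18 without test replicate 1 and 0.60 without test replicate 2, and that of *Dsc2* changed sign when any of 3 tumors was left out. *Dsg3*, the desmoglein of basal keratinocytes, had 23.3, 22.9 and 7.5 counts in control tumors and 11.5, 1.2 and 110.4 in test tumors, and its log2 fold change of 1.13 (SE 1.23) was -1.49 without test replicate 3. *Dsc3*, also a basal form, had 38, 2 and 1 counts in control tumors and 25, 1 and 12 in test tumors, and its log2 fold change of -0.13 (SE 1.38) ran from -1.12 to 3.04 with any 1 tumor left out, the upper value without control replicate 1. The forms of the upper epidermis, *Dsg1a* and *Dsc1*, had 10.6 and 11 counts in test replicate 3 and at most 2.3 in each other tumor. Near copies of *Dsg1a* exist in the mouse (*Dsg1b* and *Dsg1c*), so its counts are uncertain. The 6 genes lie within 644 kb of chromosome 18, and in FPKM they summed to 25.4, 54.6 and 35.9 in control tumors and 60.6, 26.7 and 53.9 in test tumors, with test replicates 2 and 3 inside the control range. Of the 4 tested, 3 were higher and 1 lower, with a median log2 fold change of 0.19. It was 0.75 without control replicate 1, 0.46 without control replicate 2, -0.03 without test replicate 1, 0.50 without test replicate 2 and -0.09 (1 higher, 3 lower) without test replicate 3.

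Plaque genes were abundant in all tumors. All 5 had a higher fitted level in test tumors, with a median log2 fold change of 0.65, which was 0.33 in both limma fits and 0.35 with replicate number as a block. Without test replicate 3 it was 0.28, with 3 higher and 2 lower. *Pkp2* encodes plakophilin 2, the plakophilin of simple epithelium (NCBI Gene 67451, chromosome 16, 16213345 to 16272712), and was at 24.0, 43.6 and 24.8 CPM in control tumors and at 54.0, 51.9 and 58.0 CPM in test tumors. The 3 test tumors were close together and above all control tumors. The means were 30.8 ± 11.1 and 54.6 ± 3.14 CPM (SD, n = 3 each) and the log2 fold change was 0.83 (SE 0.30) with an adjusted p of 0.514 in edgeR. *Pkp3*, the plakophilin found in nearly all desmosomes, was at 36.0, 95.6 and 62.1 CPM in control tumors and at 102, 122 and 101 CPM in test tumors. Every test tumor was again above every control tumor, control replicate 2 only just below them, and the log2 fold change was 0.75 (SE 0.36) with an adjusted p of 0.648 in edgeR. It was 0.45 without control replicate 1 and 1.14 without control replicate 2.

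*Pkp1*, the plakophilin of the upper epidermis, was at 49.0, 68.8 and 48.4 CPM in control tumors and at 33.1, 53.1 and 174 CPM in test tumors. Test replicate 3 was the only test tumor above the control range, and the log2 fold change of 0.65 (SE 0.58) was -0.35 without it. *Jup*, encoding plakoglobin, which links cadherin tails to the plaque and also sits in adherens junctions, was the most abundant desmosome member at 56.7, 92.0 and 76.3 FPKM in control tumors and 128, 53.4 and 117 FPKM in test tumors. *Dsp*, encoding desmoplakin, the anchor of keratin filaments, was at 123, 103 and 208 CPM in control tumors and at 197, 65.4 and 255 CPM in test tumors. For both genes test replicate 2 was the lowest of all 6 tumors and the other 2 test tumors were at or near the top, with log2 fold changes of 0.41 (SE 0.36) for *Jup* and 0.25 (SE 0.51) for *Dsp*. That of *Jup* was 0.22 without test replicate 1, 0.70 without test replicate 2 and 0.28 without control replicate 1 or test replicate 3, and that of *Dsp* was -0.13 without test replicate 3.

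Together the 11 desmosome members summed to 124, 224 and 176 FPKM in control tumors and to 273, 155 and 290 FPKM in test tumors, with test replicate 2 among the control tumors. *Jup* made up 34.5% to 46.8% of this sum, *Pkp3* 9.49% to 26.0%, *Dsg2* 12.7% to 18.4%, *Dsp* 4.13% to 12.5%, *Pkp1* 2.77% to 13.1%, *Pkp2* 5.0% to 11.0% and *Dsc2* 3.06% to 6.68%, and each other cadherin less than 1%. The 9 tested desmosome members had a median log2 fold change of 0.41, which was -0.04 without test replicate 3, 0.22 without test replicate 1, 0.66 without test replicate 2 and 0.77 without control replicate 2. For the 13 tested members of the envelope groups the median was 0.71, with 0.40 without test replicate 3, 0.33 without control replicate 1 and 1.18 without control replicate 2. Their 23 genes summed to 126, 429 and 206 FPKM in control tumors and to 309, 382 and 521 FPKM in test tumors.

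**Figure D3:**
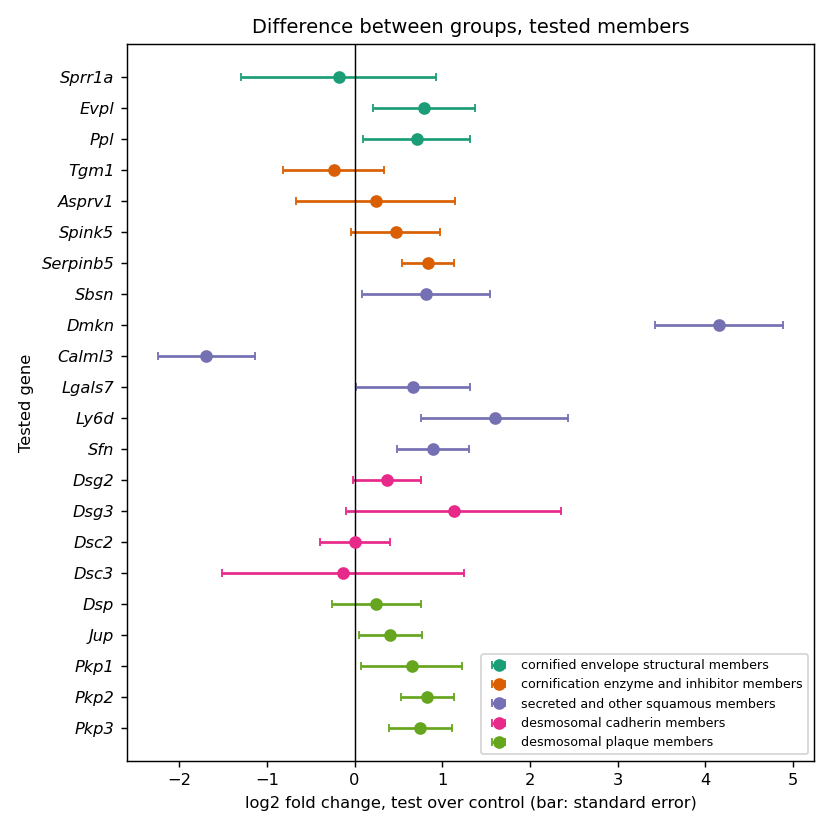
Log2 fold change of test over control tumors (horizontal axis, above 0 for higher in test) with its standard error for each of the 22 tested members (vertical axis, colored by role). *Dmkn* at 4.16 and *Calml3* at -1.69 lie farthest from 0, most others lie between 0 and 1.13, and the bars of *Dsg3* and *Dsc3* are the widest with standard errors of 1.23 and 1.38.

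Members were unevenly spread over the tumors. Test replicate 3 had the highest CPM of 11 of the 22 tested members, 7 from the envelope groups and 4 from the desmosome, while it was the highest tumor for 11.1% of all tested genes. Of the 12 members not tested, 6 also peaked there. Test replicate 1 was highest for 6 tested members (18.5% of all tested genes), control replicate 2 for 3 (12.6%), which were *Tgm1*, *Asprv1* and *Calml3*, control replicate 1 and test replicate 2 for 1 each (21.2% and 25.7%) and control replicate 3 for 0 (10.8%).

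Further envelope genes mostly had low counts. Of 41 further envelope genes, mainly small proline-rich and late cornified envelope proteins, 24 were listed in any tumor and 30 were at or under the floor in all of them. Only *Cst6*, an inhibitor of cathepsins, passed the filter (log2 fold change 1.12, SE 0.88, or -0.16 without test replicate 3), and it and *Cdsn*, which encodes the adhesion protein corneodesmosin, were the most abundant by FPKM. *Cdsn* had 30 counts in test replicate 3 and 3 to 9 elsewhere. Summed FPKM of the 41 genes was 1.5, 3.27 and 2.46 in control tumors and 1.81, 1.64 and 10.9 in test tumors, highest in test replicate 3. Families such as *Lce* and *Sprr2* hold near copies (*Sprr2a1* and *Sprr2a2* had identical values), so single counts within them are uncertain.

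Of 11 genes for the lipids of the skin barrier, 5 were tested, 2 higher and 3 lower, and 0 had an unadjusted p under 0.05 in edgeR, with a median log2 fold change of -0.01. Without control replicate 1 or test replicate 1, 4 were higher and 1 lower, and without control replicate 2, 1 had an unadjusted p under 0.05. *Slc27a4*, a fatty acid transporter expressed in many tissues, had a log2 fold change of 0.35 (SE 0.22), and its test tumors all lay above its control tumors in CPM, though not in FPKM. Among the low genes of the list, *Aloxe3*, an epidermal lipoxygenase singled out after its values were seen, had 1 count in each control tumor and 20, 17 and 8 in the test tumors.

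Epidermal keratins were scarce. Of 6, *Krt10* and *Krt80* were tested, with log2 fold changes of 0.99 (SE 0.56) and 0.01 (SE 0.67), *Krt2* was not listed in any tumor, and the list summed to 2.28, 3.48 and 2.69 FPKM in control tumors and 1.95, 2.61 and 9.3 FPKM in test tumors. *Krt1*, the first keratin of differentiating epidermis, named here after its values were seen, had 72 counts in test replicate 3 and at most 4 elsewhere. As markers of epidermis, these 6 keratins with *Lor* and *Flg* summed to 3.06, 3.54 and 3.24 FPKM in control tumors and 2.15, 2.74 and 9.65 FPKM in test tumors, with *Krt80* the most abundant and *Krt2* and *Flg* at 0. Test replicate 3, highest for many members, was thus also highest for this sum. Within the list *Krt1* was highest in that tumor, while *Lor* was highest in control replicate 1, at 13 counts. The part of epidermis in the members' levels was not tested.

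All 7 regulators of epidermal differentiation were tested, 4 higher and 3 lower, and 2 were higher without control replicate 1 and 6 without control replicate 2 or test replicate 2. *Trp63*, the master regulator of basal keratinocytes and also a gene of mammary myoepithelium, was at 371, 16.0 and 58.5 CPM in control tumors and at 23.4, 6.47 and 20.4 CPM in test tumors. Control replicate 1 alone was far above the rest and control replicate 2 lay among the test tumors. The log2 fold change of -3.15 (SE 1.09) had an unadjusted p under 0.05 and an adjusted p of 0.491 in edgeR and 0.0214 in DESeq2, and it was -1.16 without control replicate 1. *Zfp750* and *Grhl1*, transcription factors of terminal differentiation and the most abundant of the list, overlapped between groups with log2 fold changes of 0.45 (SE 0.49) and -0.01 (SE 0.45). Of 5 further desmosome genes 2 were tested, *Perp*, a membrane protein of desmosomes and a target of p53, at 0.27 (SE 0.31), and *Pkp4*, a plakophilin relative of several junctions, at 0.49 (SE 0.29), and 0 had an unadjusted p under 0.05. In the 5 lists together 17 of 70 genes were tested, and *Trp63* was the only one with an unadjusted p under 0.05.

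Markers of the mammary epithelium itself also differed between the tumors. All 6 markers of luminal epithelium had a higher fitted level in test tumors, 3 of them at an unadjusted p under 0.05 (6 without control replicate 2, 1 without control replicate 3). Over all genes, 432 of 13706 were higher at that threshold, 737 of 14166 without control replicate 2 and 271 of 14024 without control replicate 3. The 6 markers summed to 1126, 2366 and 1056 FPKM in control tumors and 3137, 3025 and 3173 FPKM in test tumors, without overlap. The keratins *Krt18* and *Krt8* of simple epithelium were the most abundant, with log2 fold changes of 1.01 (SE 0.42) and 1.22 (SE 0.37) and adjusted p values of 0.569 and 0.454 in edgeR, and *Krt19* had 1.82 (SE 0.42) with 0.394, or 0.00384 in DESeq2. The median log2 fold change of the list was 0.99, and without control replicate 2 it was 1.52, with *Krt18* at 1.55. As a percent of this luminal sum, a ratio chosen after the values were seen, the desmosome sum was 11.0, 9.45 and 16.7 in control tumors and 8.7, 5.12 and 9.16 in test tumors, lower in every test tumor. Set against *Epcam* or *Cdh1* alone the groups overlapped, at 71.0%, 55.8% and 125% of *Epcam* in control and 68.7%, 46.0% and 76.1% in test tumors, and at 174%, 161% and 219% of *Cdh1* in control and 150%, 177% and 166% in test tumors. The part of epithelial content in the desmosome values was not tested.

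**Figure D4:**
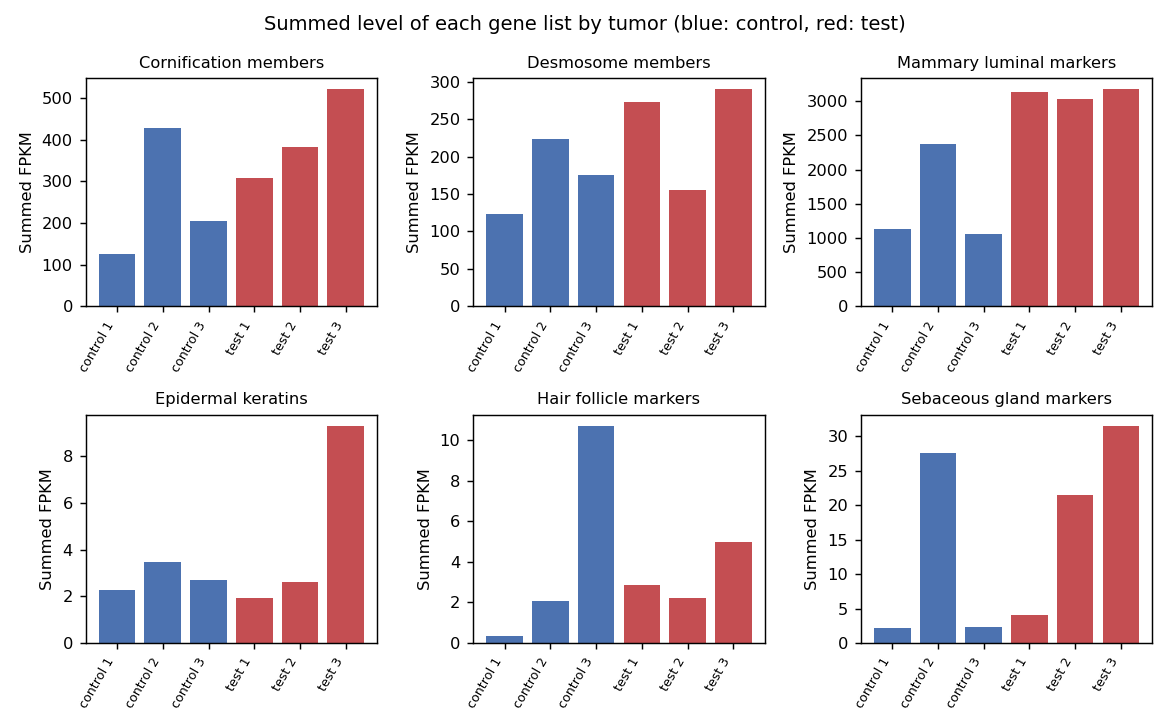
Summed FPKM (vertical axes, each starting at 0) of 6 gene lists in each control (blue) and test (red) tumor. The luminal markers are at 3025 FPKM or more in every test tumor and at 2366 FPKM or less in every control tumor, the epidermal keratins and sebaceous markers are highest in test replicate 3 at 9.3 and 31.5 FPKM, and the hair follicle markers are highest in control replicate 3 at 10.7 FPKM.

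The direction of basal or myoepithelial markers was not stable. Of 7, 1 was higher and 6 lower in fitted level, with 0 at an unadjusted p under 0.05 in edgeR and a median log2 fold change of -0.69, whereas without control replicate 3 5 were higher and 2 lower, with a median of 1.29. The median was -1.26 and -1.11 without control replicates 1 and 2, and -1.58, -0.28 and -0.32 without test replicates 1, 2 and 3. Without control replicate 2 or test replicate 1, 1 marker had an unadjusted p under 0.05, and 2 had with replicate number as a block (median -0.27). The 7 markers summed to 162, 195 and 1173 FPKM in control tumors and 454, 285 and 240 FPKM in test tumors, with control replicate 3 far above the rest and the other 2 control tumors below all test tumors. The most abundant were the smooth muscle actin gene *Acta2* at a log2 fold change of -1.04 (SE 0.89) and the basal keratin *Krt5* at -0.21 (SE 1.04), which were 0.62 and 1.75 without control replicate 3. With all 6 tumors *Krt5* was also at 1.01 and 1.10 in limma and at 0.92 with replicate number as a block. The part of basal cells in the levels of *Calml3*, *Serpinb5* and *Trp63* was not tested.

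Markers of skin appendages were present in several tumors of both groups. Of 16 hair follicle markers 15 could be matched to an identifier and 13 were listed in any tumor, 6 were at or under the floor in all tumors, among them *Krt34* and *Krt35* at 0, and 3 were tested. They summed to 0.35, 2.05 and 10.7 FPKM in control tumors and 2.88, 2.24 and 5.0 FPKM in test tumors. The most abundant were *Padi3*, an enzyme of the hair shaft, with a log2 fold change of -0.80 (SE 1.16), and *Tchh*, encoding trichohyalin of the inner root sheath, with 5, 7 and 16 counts in control tumors and 19, 13 and 150 in test tumors. *Tchh* had an unadjusted p under 0.05 (log2 fold change 2.68, SE 1.00, adjusted p of 0.521 in edgeR), and its fold change was 0.90 without test replicate 3. Of 7 sebaceous gland markers 2 were tested, both higher, 0 at an unadjusted p under 0.05, and *Awat1* was at 0 throughout. Their median log2 fold change was 0.73, or 0.42 without control replicate 3 and 0.44 without test replicate 3. Without control replicate 2 it was 2.15, and 1 marker had an unadjusted p under 0.05. *Krt79*, the keratin of sebaceous ducts and the most abundant sebaceous marker, had 26, 507 and 27 counts in control tumors and 42, 373 and 612 in test tumors, and *Awat2*, the next by FPKM, 6 to 19. The sebaceous sum was 2.18, 27.6 and 2.28 FPKM in control tumors and 4.13, 21.5 and 31.5 FPKM in test tumors. The high sums were nearly all *Krt79*, highest in control replicate 2 and test replicate 3, the tumors with the most *Sprr1a*, while *Awat2* was highest in test replicate 1. Test replicate 2, with 373 counts of *Krt79*, had only 15 of *Sprr1a*, and control replicate 1, with 26 of *Krt79*, had 56 of *Sprr1a*. The part of skin appendages in the members' levels was not tested.

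Of 5 melanocyte markers 2 were tested, both higher and 0 at an unadjusted p under 0.05. *Tyr*, the enzyme of melanin synthesis, had 460.7 to 1186.4 counts and *Pmel* 40 to 102, while the defining markers *Dct* and *Tyrp1* had at most 2, and the sum was 31.7, 20.9 and 30.6 FPKM in control tumors and 28.8, 40.2 and 41.7 FPKM in test tumors. All 10 skeletal muscle markers had a higher fitted level in test tumors with overlapping groups, *Actn3* (log2 fold change 3.21, SE 1.36) and *Pvalb* (3.08, SE 1.13) at an unadjusted p under 0.05. In limma 7 and 8 of the 10 were under it with pseudocounts of 1 and 0.1. Without control replicate 2 all 10 were under it in edgeR (*Actn3* at 5.88 and *Pvalb* at 5.04), and 0 were without control replicate 1 or 3 or test replicate 1 or 2 (*Actn3* at 1.64 without test replicate 1). Over all genes, 1153 of 13706 were under it in edgeR with all 6 tumors and 2020 of 14166 without control replicate 2. In limma 930 and 914 of 12890 genes were. The muscle markers summed to 5.03, 118 and 3.93 FPKM in control tumors and 622, 129 and 68.8 FPKM in test tumors, with *Acta1* and *Tnnt3* the most abundant. Of 4 adipocyte markers only *Adipoq* was tested (log2 fold change 4.31, SE 1.55, an unadjusted p under 0.05, and 2.18 without test replicate 1), the sum was 0.15, 2.1 and 1.18 FPKM in control tumors and 65.0, 9.14 and 0.45 FPKM in test tumors, and *Adipoq* and *Cidec* were the most abundant. The fold change of *Adipoq* was 2.12 and 2.87 in limma and 2.76 with replicate number as a block. Its unadjusted p was not under 0.05 in these fits, nor without control replicate 1, control replicate 3 or test replicate 1. *Dmkn*, like *Adipoq* and the muscle sum, was highest in test replicate 1, the highest tumor for 6 tested members. In other tumors the levels parted. Test replicate 3 had *Dmkn* at 30.5 CPM with an adipocyte sum of 0.45 FPKM. Control replicate 2 had a muscle sum of 118 FPKM with *Dmkn* at 3.46 CPM.

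Fibroblast markers overlapped, with 5 of 6 higher in fitted level (1 of 6 without test replicate 2), 0 at an unadjusted p under 0.05 in edgeR and sums of 228, 631 and 416 FPKM in control tumors and 372, 1016 and 410 FPKM in test tumors, with *Col1a1* and *Col3a1* the most abundant. Of 6 leukocyte markers 5 were tested and all 5 had a lower fitted level in test tumors, with *Itgam*, an integrin of myeloid cells, at an unadjusted p under 0.05 (log2 fold change -0.76, SE 0.32). In either limma fit, and without control replicate 1, control replicate 3 or test replicate 1, 0 of the list were under it. Without control replicate 2 or test replicate 3, 2 were. *Lyz2* and *Cd68*, both of macrophages, were the most abundant, and the list summed to 241, 261 and 481 FPKM in control tumors and 154, 329 and 137 FPKM in test tumors. The part of fat, muscle, stroma, melanocytes and leukocytes in the members' levels was not tested. As with the members, 0 genes of the further lists had an adjusted p of 0.05 or less in edgeR, while DESeq2 placed *Krt19* and *Trp63* there and edgeR without control replicate 2 placed 1 muscle marker there.

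*Tslp* and *Rag1*, the genes of the design, had few counts. *Tslp* had 2, 2 and 3 counts in control tumors and 12, 7 and 2 in test tumors, so test replicate 3 had no more than the control tumors. *Rag1* had 27, 4 and 10 counts in control tumors and 6, 12 and 9 in test tumors, in groups that both lack the functional gene. Reads of a disrupted gene can still be counted, so these values do not check the knockout.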

How the data were processed

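RNA of 6 breast tumors (3 test, 3 control) was sequenced by the authors. The submitters' processing notes name Bowtie, BWA, RSEM and the mm10 genome, with no versions. For each gene the authors deposited an unnormalized expected count, the FPKM (normalized by the authors for gene length and depth) and the length used. Genes not listed in a tumor were given a count of 0.

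Groups and replicate numbers were taken from the sample titles. Gene symbols were matched by NCBI Gene identifier to the RefSeq annotation of GRCm38.p6 (18400 of 18460 genes matched), and transcripts and windows were set against GENCODE on the same build. Promoter windows are from RefSeq. Counts were rounded to integers and tested in R 4.3.3 with the quasi-likelihood test of edgeR 4.0.16 (filterByExpr, TMM scaling, test against control, no covariates, Benjamini-Hochberg adjustment over all 13706 tested genes). Standard errors (SE) are the size of the log2 fold change over the square root of its F statistic. The biological coefficient of variation was 0.434. The script was tested on simulated data. Totals per tumor ran from 8373390 to 9449565, and the floor of 3 counts applies to single tumors.

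The members and lists were chosen with earlier results of these data known. Genes named are all 34 members, the 2 genes with the highest mean FPKM of each further list, every listed gene with an unadjusted p under 0.05, *Tslp* and *Rag1*, and exceptions are marked as chosen after their values were seen. Genes named for a count of 0 or a count near it belong to these exceptions, as do *Epcam*, *Cdh1*, *Tmem147os* and the close relatives of members.

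Alternatives were DESeq2 1.42.0, RLE scaling, no filter on low counts, a mean of at least 10 counts, limma 3.58.1 on log2 FPKM with pseudocounts of 1 and 0.1 (mean FPKM 1 or more), a block for replicate number, and each tumor left out in turn. For genes outside the members these alternatives, and the ratios of the desmosome sum to epithelial genes, were added after seeing the data. The values of 1 gene of the barrier lipid list, and the sum of that list, are not reported here.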

Additional observations from a re-analysis of the deposited data

How the results depend on the processing

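Of the 22 member fold changes, 13 kept their sign in all 13 alternatives, 9 changed sign with a tumor left out and 3 did so in another alternative. DESeq2 placed 1 member (*Dmkn*) at an adjusted p of 0.05 or less, against 0 in edgeR, where 4 members had an unadjusted p under 0.05. It placed 343 genes in all there against 0 in edgeR and 1 and 0 in limma with pseudocounts of 1 and 0.1, while 1153 genes in edgeR, 1582 in DESeq2 and 930 and 914 in limma had an unadjusted p under 0.05. Genes of the 5 further epidermal and desmosome lists at an unadjusted p under 0.05 numbered 1 in edgeR, 3 in DESeq2, 2 with no filter and 0 in limma with either pseudocount. *Dsc2* changed sign in limma, to -0.10 with a pseudocount of 1 and -0.12 with 0.1. With each tumor left out in turn, members at an adjusted p of 0.05 or less ranged from 0 to 1 (1 without control replicate 2, where 182 genes were called), members higher at an unadjusted p under 0.05 from 1 to 8, members lower from 0 to 1, and genes of the further lists from 1 to 3. The median of the tested members ranged from 0.17 to 0.96. Ranges that included both signs were -1.88 to 0.83 for *Sprr1a*, -0.08 to 1.18 for *Evpl*, -0.64 to 0.53 for *Tgm1*, -0.23 to 2.11 for *Asprv1*, -1.49 to 1.70 for *Dsg3*, -0.24 to 0.35 for *Dsc2*, -1.12 to 3.04 for *Dsc3*, -0.13 to 0.65 for *Dsp* and -0.35 to 1.04 for *Pkp1*. The cause was not tested in any of these. Depth limits the 12 members that were not tested.

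The groups share replicate numbers, and no pairing of mice by number is stated. Across genes, the deviations of same-numbered tumors had correlations of -0.03, 0.112 and -0.138 for numbers 1, 2 and 3. These values cannot show whether same-numbered mice shared a litter or were handled together. With the replicate number as a block, 0 members had an adjusted p of 0.05 or less, 4 were higher at an unadjusted p under 0.05 (*Sfn*, *Pkp3*, *Pkp2* and *Dmkn*) and 1 lower, and 1056 genes in all had an unadjusted p under 0.05. Fold changes that took the other sign under the block were those of *Dsg3* at -0.36, *Dsc2* at -0.10 and *Dsc3* at 0.51. The cause was not tested.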
